A study of Mus musculus with 2 samples.

Results

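Most replication-dependent histone genes of the mouse lie in a major cluster on chromosome 13, called Hist1, and a smaller one on chromosome 3, called Hist2. Zfp217 peaks were taken as belonging to them when they overlapped chr13:21700000-24100000 or chr3:96000000-96400000 of the build mm9 by at least 1 base. This gave 110 of the 18737 peaks of the list, 60 in the Hist1 window and 50 in the Hist2 window. The members were chosen by position, and the windows were selected on the width and density of peaks already seen there, so their counts, widths and spacing are given as a description, without tests. The peaks were called from ChIP-seq, the sequencing of chromatin fragments pulled down with an antibody, in the mouse embryonic stem cell line CCE. One immunoprecipitated library was made with a Zfp217 antibody and 1 library from input chromatin, both from untreated CCE cells grown without feeder cells on gelatin, in medium with serum and leukemia inhibitory factor. The genotype, strain and culture time are not given in the labels. No value of the input library was analysed here, the list holds no peak height, and read depth is unknown. With 1 library there is no spread between replicates to set beside any value. The list holds positions only, so the labelled cell type was not checked against markers.

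Histones are the proteins around which DNA is wound. Cells need them in bulk while DNA is copied, and the replication-dependent genes are transcribed mainly in S phase; their short, intron-free transcripts end in a stem-loop in place of a poly(A) tail. Clustered histone genes gather in a nuclear compartment, the histone locus body, and H2a and H2b genes often share 1 promoter region from which they are read in opposite directions. Zfp217 is a zinc finger protein known from CoREST and CtBP corepressor complexes. Extra gene copies that are nearly identical are typical of these clusters, and reads from such copies are hard to place.

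By symbol or older symbol, the gene table that RefSeq gives for GRCm38.p6 lists 54 protein-coding histone genes on chromosome 13 and 10 on chromosome 3. Those on chromosome 13 comprise 6 H1 (linker histone), 13 H2a, 15 H2b, 9 H3 and 11 H4 genes. Chromosome 3 holds 4 H2a, 2 H2b, 3 H3 and 1 H4 gene. Another 7 genes found by these symbols, some of them not tied to replication, lie on chromosomes 6, 11 and 15 and are not described here. No genome of mm9 was used here, so the bases under the peaks are not shown and no peak was assigned to a gene. The RefSeq promoter table of GRCm38.p6, which spans 250 bases before to 50 after a gene's start, matched 59 of these 64 genes, 51 on chromosome 13 and 8 on chromosome 3. From it, 5 stretches of the 250 bases before the start are shown as examples. They stand for a promoter read in both directions, the short elements of histone promoters, and near-identical copies. They lie at chr13:21716162-21716411 (+ strand) for H2ac13, chr13:21721794-21722043 (+) for H2bc14, chr13:21811496-21811745 (+) for H4c17, chr13:21832198-21832447 (-) for H4c18 and chr3:96245247-96245496 (+) for H2ac18. These positions are of GRCm38.p6 and cannot be set against the mm9 positions of the peaks. Capitals mark matches on either strand of the CCAAT box, the TATA box written as TATAAA and the octamer written as ATTTGCAT.
H2ac13: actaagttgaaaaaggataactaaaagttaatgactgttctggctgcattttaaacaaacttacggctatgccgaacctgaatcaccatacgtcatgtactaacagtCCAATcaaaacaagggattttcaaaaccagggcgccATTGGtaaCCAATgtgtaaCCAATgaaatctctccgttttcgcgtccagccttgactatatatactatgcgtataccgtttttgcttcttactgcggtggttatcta
H2bc14: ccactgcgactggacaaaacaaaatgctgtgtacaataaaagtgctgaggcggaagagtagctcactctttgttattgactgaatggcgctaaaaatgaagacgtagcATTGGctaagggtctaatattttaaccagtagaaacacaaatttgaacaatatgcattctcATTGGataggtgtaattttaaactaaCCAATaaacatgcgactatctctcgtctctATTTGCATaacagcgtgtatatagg
H4c17: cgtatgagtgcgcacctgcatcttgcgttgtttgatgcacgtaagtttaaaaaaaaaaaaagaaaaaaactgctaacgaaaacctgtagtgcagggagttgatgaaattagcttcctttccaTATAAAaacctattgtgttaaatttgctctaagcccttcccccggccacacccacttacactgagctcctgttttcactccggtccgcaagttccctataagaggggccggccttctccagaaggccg
H4c18: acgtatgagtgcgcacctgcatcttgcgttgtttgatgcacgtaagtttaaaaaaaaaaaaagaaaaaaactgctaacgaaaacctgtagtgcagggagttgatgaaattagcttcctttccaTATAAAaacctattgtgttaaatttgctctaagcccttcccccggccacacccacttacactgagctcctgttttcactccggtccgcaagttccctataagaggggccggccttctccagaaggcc
H2ac18: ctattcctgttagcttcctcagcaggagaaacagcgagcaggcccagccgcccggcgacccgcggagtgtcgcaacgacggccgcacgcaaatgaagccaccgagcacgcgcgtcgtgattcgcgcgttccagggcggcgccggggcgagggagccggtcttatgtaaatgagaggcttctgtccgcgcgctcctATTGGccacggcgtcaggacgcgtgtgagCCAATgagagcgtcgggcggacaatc

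H2ac13, an H2a gene, holds 4 CCAAT matches and faces the H2b gene H2bc13, whose start lies 229 bp away on the other strand, so that 272 bases of their promoter windows are the same DNA. Among genes with a promoter in the table, chromosome 13 has 10 such neighbouring pairs of an H2a and an H2b gene read away from each other, with a median of 204.5 bp between the starts. No such pair was found on chromosome 3, where only 8 of the 10 histone genes had a promoter, so a pair there could be missed. H2bc14, an H2b gene, was picked as the first in gene order with both elements, and has 3 CCAAT matches and 1 match of ATTTGCAT, the octamer known as a binding site of Oct factors. H4c17 and H4c18, both H4 genes, hold the letters TATAAA and no CCAAT match, and their 250 bases are 99.2% identical. The TATAAA lies near the middle of the stretch, far from the start. Position was not part of a match, so these letters need not be a TATA box. H2ac18 from the Hist2 cluster is richer in G and C, 65.6% against 39.6% in H2ac13. These values describe single promoters, and the share of G and C was not compared between the clusters. Of the promoters shown, all but that of H2ac13 were chosen after the promoters had been seen.

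Across the 60 promoter windows of histone genes in both clusters, 1 gene having 2 windows, CCAAT, bound by NF-Y, occurred on either strand in 52 (86.7%), against 37.4% of all 32851 windows in the table. All 6 H1, 17 H2a, 16 H2b and 10 H3 windows held it, but only 3 of 11 H4 windows did. The TATA box letters TATAAA were on either strand in 34 (56.7%), against 13.6% of all windows. On the strand of the gene alone TATAAA was in 29 (48.3%), against 8.32% of all windows. The H2b windows with it then fell from 7 to 3 of 16. The octamer ATTTGCAT was in 13 (21.7%), against 1.74%, and lay in 7 of 16 H2b windows and 6 of 17 H2a windows and in none of the other classes. Read on the strand of the gene alone it was in the same number of H2b windows, 7, and in 0 of 17 H2a windows, or 11.7% of all 60. The windows of divergent pairs share 220 to 279 of their 300 bases, so a match on either strand can be counted for both partners. None of these motifs contains another. A match is a string of letters anywhere in the window and not a measured site, and whether Zfp217 peaks lie on these elements was not tested.

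Some of these promoters shared sequence. A stretch of at least 36 identical bases was shared with the promoter window of another, non-overlapping histone gene in 14 of the 60 windows (23.3%), whereas 9.87% of all windows shared such a stretch with a gene of any kind. On chromosome 3 these were 4 of 8 windows. H2bc23 and H4bc24, an H2b gene by its older symbol, had a window identical over all 300 bases. H4c17 and H4c18 shared 285 bases in 1 run, H3c14 and H3c15 shared 231, and H2ac18 and H2ac19 shared 219. Aligned from end to end, the 250 bases before the starts of H2ac18 and H2ac19 matched in 206 of 290 columns (71.0%). The shared sequence lies at different distances from the listed starts. That percentage therefore counts unmatched ends and is no measure of how far the shared part differs. Of the 11 pairs that shared at least 36 bases, 7 shared 200 or more. The other 4 shared much less: 72 bases for H4c11 and H4c12, 40 for H2ac23 and H2ac7, and 38 for H4c9 with each of H4c17 and H4c18. Not all of the pairs are separate. The windows of H2bc23 and H2ac23 overlap in 267 bases, and those of H2ac24 and H4bc24 in 233. Runs of 300, 267, 233 and 200 bases between these divergent promoters therefore count the same DNA repeatedly. The 14 windows include these overlapping ones. How the authors treated reads that match several places, and the read length, are unknown here, and the part of such reads in the peaks was not tested.

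The Hist1 window carried 60 peaks over 2.4 Mb, or 25 peaks per Mb. The 3 Mb below it held 17 peaks and the 3 Mb above it 9, which is 5.67 and 3 per Mb, and the rest of chromosome 13 held 628 peaks, or 5.79 per Mb. Peaks were thus 5.77 times as dense in the window as in both flanks together and 4.31 times as dense as in the rest of the chromosome. The Hist2 window carried 50 peaks over 0.4 Mb, or 125 per Mb. Its flanks were themselves denser than the rest of chromosome 3, with 65 peaks (21.7 per Mb) below and 30 (10.0 per Mb) above, against 738 peaks (4.94 per Mb) elsewhere. The window exceeded both flanks 7.89 times and the rest of the chromosome 25.3 times. Against flanks of only 1 Mb on each side the excess in density was 3.12 times for Hist1 and 4.31 times for Hist2.

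Peaks covered 67.3 kb of the Hist1 window and 37.6 kb of the Hist2 window, 2.80% and 9.40% of their bases. On chromosome 13 the covered share was 0.179% in the lower flank, 0.117% in the upper flank and 0.210% in the rest. On chromosome 3 it was 0.776%, 0.346% and 0.170%. The covered share of the window was therefore 18.97 times that of both flanks for Hist1 and 16.8 times for Hist2, and 9.32 times for each with flanks of 1 Mb. In both windows the excess in covered bases over both flanks was larger than the excess in peak number, 5.77 times in Hist1 and 7.89 times in Hist2. Together the 110 peaks make up 0.587% of the list and 1.52% of the 6.90 Mb that all peaks cover.

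**Figure D1:**
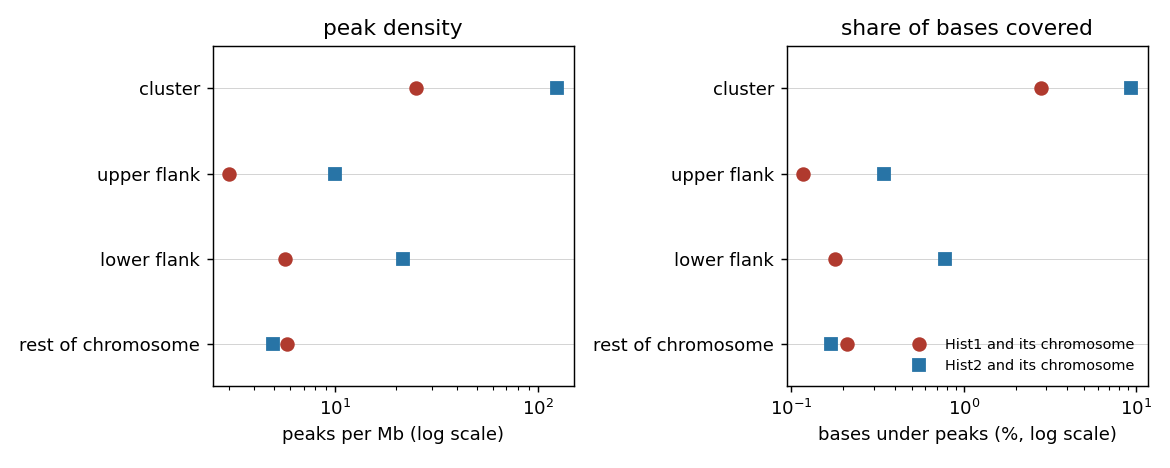
Peaks per Mb (left) and percentage of bases under peaks (right), both on a log scale, in each window, the 3 Mb on either side and the rest of its chromosome, from 1 library. The windows lie highest in both panels, at 25 and 125 peaks per Mb and at 2.80% and 9.40% of bases.

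Widths set the clusters apart in different ways. In Hist1 the median peak was 1077 bp wide, with the middle 50% of peaks between 310.75 and 1639.25 bp and the extremes at 157 and 3634 bp. Its flanks had a median of 295 bp and a widest peak of 799 bp, and the rest of chromosome 13 had a median of 325.5 bp and a widest peak of 1132 bp. In Hist2 the median was 343 bp, close to the 321 bp of its flanks and the 300.5 bp of the rest of chromosome 3. The upper quartile there was 768.25 bp, however, against 459 bp in the flanks, and the widest peak had 5223 bp. The typical peak was therefore wide in Hist1, while in Hist2 a minority of very wide peaks stood among peaks of ordinary width.

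Peaks of at least 1000 bp, called wide here, make up 1.04% of the whole list. They numbered 34 of 60 in Hist1, or 56.7% (exact Clopper-Pearson 95% interval 43.2 to 69.4, counting error only), and 11 of 50 in Hist2, or 22.0% (11.5 to 35.96). None of the 26 peaks in the flanks of Hist1 and none of the 95 in the flanks of Hist2 reached that width, which allows shares of up to 13.2% and 3.81%. The rest of chromosome 13 held 2 wide peaks, of 1124 and 1132 bp, starting at 81024597 and 81921875. The rest of chromosome 3 held 2 as well, of 1820 and 1257 bp, starting at 61166905 and 152058707. Width was among the values that drew attention to the windows, and nothing is tested with it.

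**Figure D2:**
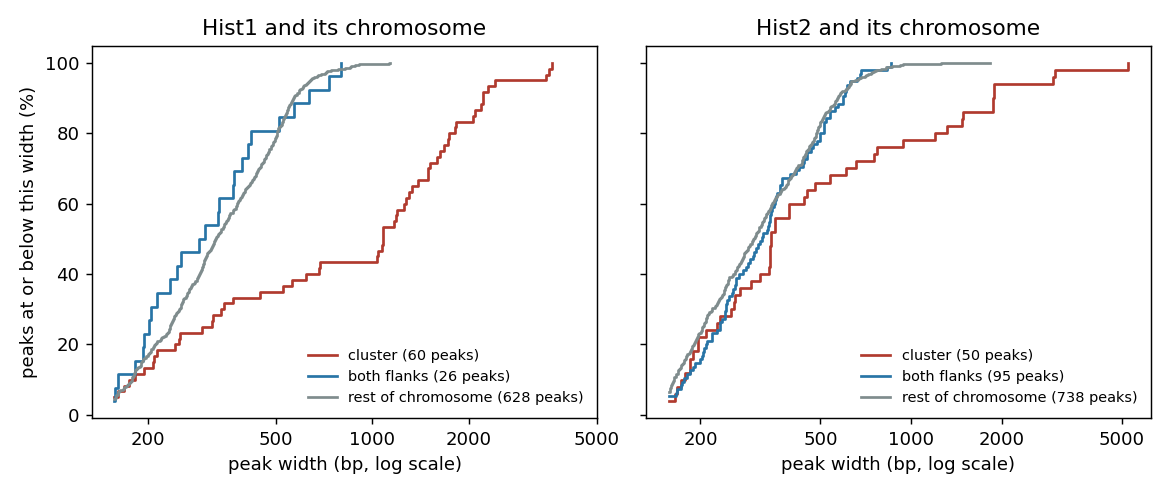
Cumulative percentage of peaks at or below each width (log scale) in the windows, their flanks and the rest of the chromosome. The Hist1 curve runs flat between 687 and 1035 bp and lies far to the right of the others, whereas the Hist2 curve follows its flanks up to a median of 343 bp and departs above it.

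Most Hist1 peaks were either narrow or wide. Of its 60 peaks, 21 were under 500 bp, 5 had 500 to 999 bp and 34 had 1000 bp or more. No peak lay between 700 and 999 bp, a range that holds 685 peaks (3.66%) of the whole list; the nearest members had 687 and 1035 bp. This range was picked with the widths known, few peaks would fall in it at the share of the whole list, and joining peaks within 1000 bp put a block of 908 bp there, so the empty range is no more than a description. Hist2 had 33 peaks under 500 bp, 6 of 500 to 999 bp and 11 above, with 3 peaks between 700 and 999 bp and a step from 942 to 1204 bp. The narrowest width of the list, 157 bp, occurred 5 times among the 110 members (4.55%), against 3.64% of all peaks. The narrowest class was thus present in the windows beside the widest peaks of the list.

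The share of the list's wide peaks that lay in the windows grew with the width asked for. The windows held 48 of 880 peaks of at least 700 bp (5.45%), 45 of 195 of at least 1000 bp (23.1%) and 25 of 49 of at least 1500 bp (51.0%). They held 13 of 17 of at least 2000 bp (76.5%) and 4 of 5 of at least 3000 bp (80.0%). In the whole list these widths are reached by 4.7%, 1.04%, 0.262%, 0.0907% and 0.0267% of peaks. Of the 20 widest peaks, 14 were members. The 45 wide members had a median width of 1627 bp, and the 150 wide peaks elsewhere one of 1186.5 bp.

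**Figure D3:**
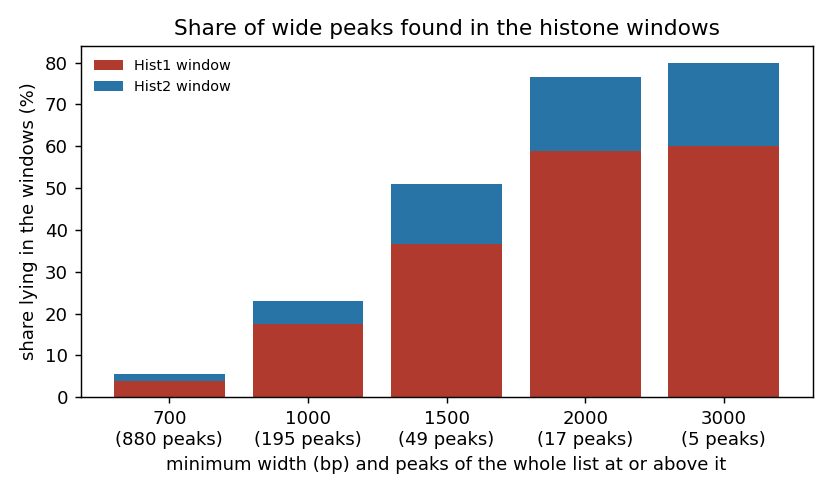
Percentage of all peaks at or above a minimum width that lay in the Hist1 window (red) and the Hist2 window (blue, stacked on top); the number of such peaks in the whole list stands under each bar. The share rises from 5.45% at 700 bp to 80.0% at 3000 bp, where only 5 peaks are left.

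Gaps of over 200 kb split the Hist1 peaks into 2 subclusters and left the Hist2 peaks as 1. The lower Hist1 subcluster, chr13:21807305-22142919, held 19 peaks over 336 kb. The upper one, chr13:23262052-24026453, held 41 peaks over 764 kb. Between them 1119 kb held no peak. The subclusters together span 45.8% of the window, and peaks covered 6.12% of that span. The Hist2 peaks ran from 96001330 to 96398241 with no gap above 39.5 kb and so spanned 99.2% of their window.

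The lower Hist1 subcluster opened with the 3483 bp peak that starts at 21807305, the first of the window. Its first 7 peaks, up to 21875434, were all wide, between 1071 and 3483 bp. The widest Hist1 peaks followed at chr13:21900775-21904325 (3551 bp) and chr13:21923243-21926876 (3634 bp), with 1 wide peak of 1732 bp and 4 peaks of 157 to 318 bp before and between them. After 110 kb without a peak came 1 peak of 680 bp, and after a further 89.2 kb 3 wide peaks within 9.26 kb, led by one of 2283 bp at chr13:22126526-22128808. A peak of 183 bp closed the subcluster. In all, 13 of its 19 peaks were wide, with a median of 1732 bp among the wide ones, and wide peaks made up 94.0% of the 28.4 kb covered.

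The upper Hist1 subcluster began with narrow peaks. Its first 11 peaks, from 23262052 to 23537949, were 157 to 562 bp wide with a median of 250 bp, below that of the rest of the chromosome. Then 84.7 kb without a peak led to the main array of wide peaks, chr13:23622606-23856871, where 28 peaks lay within 234 kb and 21 of them were wide. The widest of these was chr13:23852016-23854422 with 2407 bp, followed by one of 2218 bp starting at 23665111. Wide peaks alone covered 13.8% of this array, and the median gap from one wide peak to the next was 3.88 kb. A last pair of 528 and 209 bp lay 169 kb further on. With gaps of over 100 kb as the limit, the Hist1 peaks fell into 5 groups, and the wide peaks lay in 3 of these, 10, 3 and 21 in number.

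In the Hist2 window wide peaks were interspersed with narrow ones. How much of this window the histone genes span on mm9 was not measured. Its peaks, the widest included, therefore need not lie at histone genes. Its first peaks, of 270 and 316 bp, were followed by 3 wide peaks in a row between 96023468 and 96051905, of 1870, 2957 and 2993 bp. Each of the other 8 wide peaks stood alone between narrow ones. They included one of 1890 bp at chr3:96253733-96255622 and one of 1877 bp at chr3:96072433-96074309, and the median gap from one wide peak to the next was 15.2 kb. The longest stretch without a wide peak held 14 peaks of 157 to 942 bp over 108 kb. The widest peak of the entire list, chr3:96361463-96366685 with 5223 bp, lay near the upper end, 30.2 kb above the peak before it. Wide peaks made up 64.2% of the covered bases in Hist2 and 87.8% in Hist1.

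**Figure D4:**
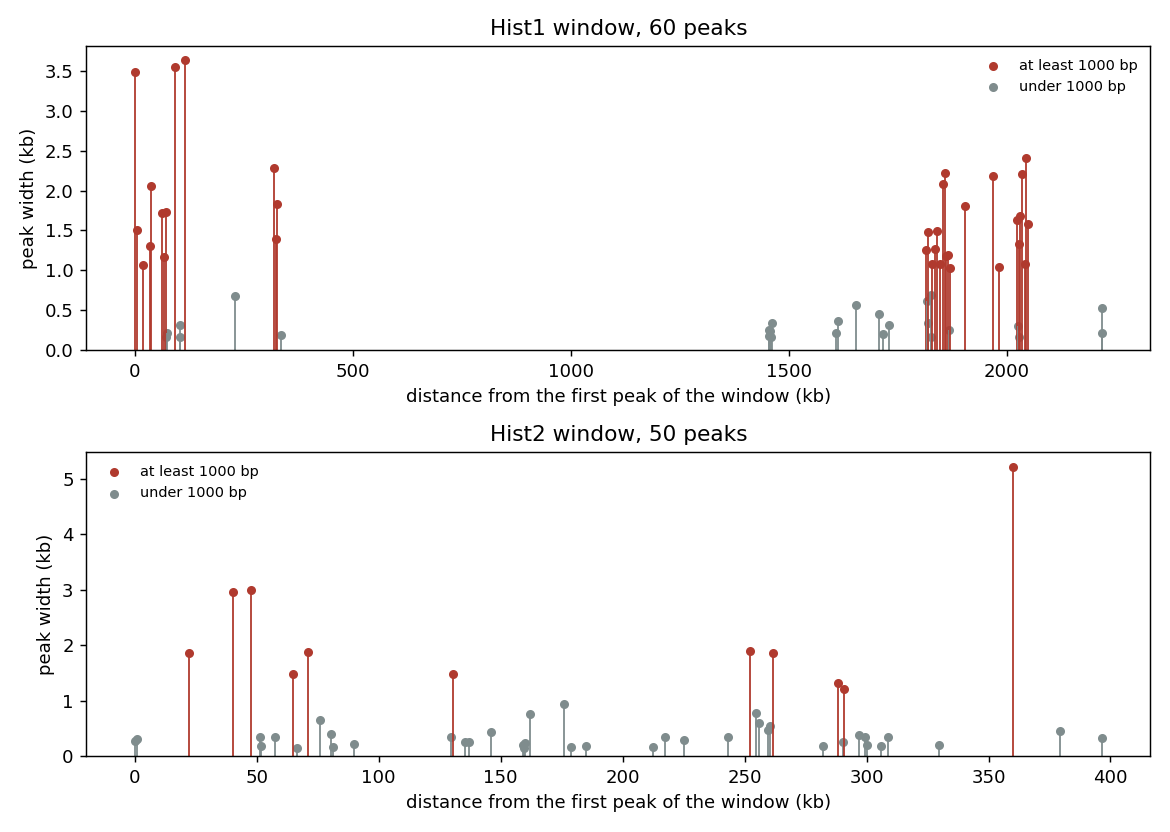
Width of every member peak in kb against its distance from the first peak of its window in kb, with peaks of at least 1000 bp in red and narrower ones in grey. Wide peaks of Hist1 sit in blocks on both sides of the 1119 kb without a peak, and those of Hist2 are spread among narrow peaks, with the 5223 bp peak near the end.

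Neighbouring peaks lay close together. Over the whole Hist1 window the median gap was 3.15 kb, against 64.3 kb in its flanks and 52.6 kb in the rest of chromosome 13. Within its subclusters it was 5.10 kb in the lower and 2.79 kb in the upper one. In Hist2 it was 4.32 kb, against 26.4 kb in its flanks and 51.8 kb in the rest of chromosome 3. The shortest gaps were 62 bp, below the peak that starts at 23836226, and 109 bp, below the one that starts at 96082430. Gaps of at most 500 bp made up 11 of 59 in Hist1 (18.6%) and 10 of 49 in Hist2 (20.4%), beside 11.9% of the neighbouring pairs on chromosomes 1 to 19 and X. In the lower Hist1 subcluster they made up 2 of 18 (11.1%), near that background, and in the upper one 9 of 40 (22.5%). The flanks had 1 of 24 (4.17%) beside Hist1 and 14 of 93 (15.1%) beside Hist2. Only 4 of the 26 narrower Hist1 peaks and 5 of the 39 narrower Hist2 peaks lay within 500 bp of a wide one, so most narrow members lay farther from the nearest wide peak.

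Joining peaks within 1000 bp left 44 blocks in Hist1 and 35 in Hist2, of which 11 and 10 combined several peaks. The widest Hist1 block, chr13:23662106-23668669, joined 3 peaks into 6564 bp and so exceeded every single peak of the list. The next joined 2 peaks into 4856 bp. In Hist2 the 5223 bp peak remained the widest, and the second block joined 3 peaks into 4274 bp from 96048913. After joining, 30 blocks of Hist1 and 13 of Hist2 were at least 1000 bp wide.

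On a finer scale, 32 of the 48 bins of 50 kb in the Hist1 window held no peak, and none of the 8 bins in Hist2 was empty. Peaks covered over 10% of the bases in 6 Hist1 bins and 4 Hist2 bins, up to 18.9% and 19.03%. Outside the windows, 9 of the 11021 bins with a peak (0.0817%) were covered to that extent, the highest, at 66.8%, lying at the start of chromosome 9, and the median bin was covered to 0.970%. Wide peaks lay in 10 of the 48 Hist1 bins and 5 of the 8 Hist2 bins.

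Stretches of the same length elsewhere showed what was shared with other peak-rich places. Chromosomes 1 to 19 and X were cut from their first base into stretches of 2.4 Mb, leaving out those that overlap a histone window. Of 1104 such stretches, 32 held more peaks than the 60 of Hist1, up to 169 on chromosome 10, but none had more bases under peaks: the most was 63.8 kb, in that stretch of 169 peaks with a median width of 330 bp. The highest median width among the 876 stretches with at least 5 peaks was 654 bp, against 1077 bp in Hist1, and the most wide peaks were 15, against 34. Both of these belonged to the stretch at the start of chromosome 9. In stretches of 0.4 Mb, none of 6590 held as many peaks as the 50 of Hist2, the highest number being 43, and none had as many bases covered. By median width Hist2 was ordinary: 561 of 1353 stretches with at least 5 peaks had a higher median. It held 11 wide peaks, and 1 other stretch, again at the start of chromosome 9, held more, with 15. These ranks depend on where the stretches begin: cut at the 397 kb that the Hist2 peaks span, 1 stretch held 51 peaks.

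**Figure D5:**
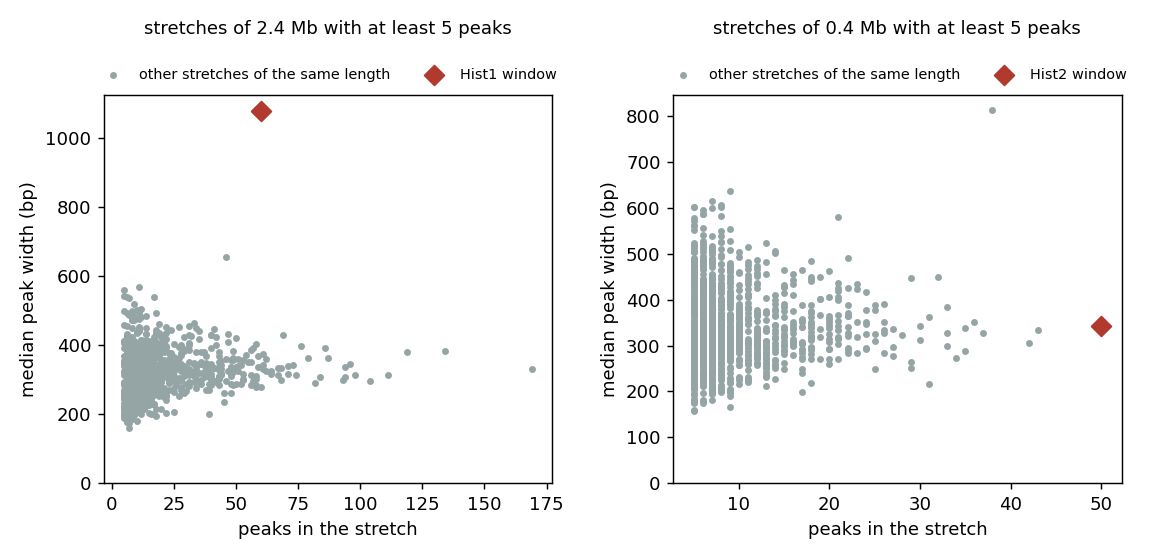
Number of peaks (horizontal axis) and median peak width in bp (vertical axis) of stretches as long as each window, with at least 5 peaks each; the diamonds are the histone windows. Hist1 lies above every other stretch in median width at 1077 bp, and Hist2 lies farthest to the right with 50 peaks and an ordinary median of 343 bp.

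At the borders, peaks just inside and just outside the windows were of ordinary width except for the first of Hist1. That peak of 3483 bp lay 107 kb inside the lower border, and the nearest peak outside, of 334 bp, lay 76.9 kb below the border. At the upper border of Hist1 the last member had 209 bp, and the next peak, 273 kb beyond the border, had 513 bp. The borders of Hist2 cut through a row of peaks: members of 270 and 337 bp lay 1.33 and 1.76 kb inside, and peaks of 514 and 254 bp lay 23.3 and 2.13 kb outside. The count in Hist2 therefore depends on where its window ends.

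The order of genes in the GRCm38.p6 table gives the background against which this layout stands, without any position being compared. Counted by protein-coding neighbours, the histone genes of chromosome 13 form 5 runs. The first has 18 genes from H2bc13 to H4bc24, and the second 5, from H2ac12 to H2bc11, with 31 tRNA genes among the 39 genes between them. Next come 147 genes, 75 of them named as Vmn1r, a family of pheromone receptors of the vomeronasal organ with many pseudogenes, and 46 of them tRNA genes. The third run has 20 genes from H4c8 to H4c3, and the fourth 9, from H1f2 to H1f1, on the other side of Hfe, which encodes a regulator of iron uptake. The last is a pair, H2bc1 and H2ac1. On chromosome 3 the 10 histone genes form 1 run from H2ac21 to H2bc18, next to Bola1 on one side and Fcgr1, a receptor for antibodies, on the other. Of the 60 genes that follow it, 25 are tRNA genes and 8 are snRNA genes, which encode small RNAs used mainly in splicing. Which of these genes lie under the peaks, wide or narrow, was not tested, and histone and tRNA genes cannot be told apart as neighbours of a peak in these data.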

How the data were processed

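ChIP-seq with a Zfp217 antibody was analysed in 1 immunoprecipitated library of CCE cells; the input library entered no comparison. The authors deposited 1 peak list with chromosome, start, end and name, and no score or depth, per the file headers. Per the submitters' processing notes the tools were CASAVA 1.4, MACS2 and Bowtie2, with mm9 as build, without settings; the calling threshold and use of the input are unknown here. Starts were counted from 0 in the deposited file and are printed from 1. Widths, gaps from the end of 1 peak to the start of the next, density and covered share were computed per window. Flanks were 3 Mb on each side, and the rest of a chromosome ran from its first to its last peak. The peaks named are the 5 widest, narrowest, first, last and border peaks of each window, those at the longest and shortest gaps and the widest of each subcluster; any other was picked with its values known. The windows, members and lists were chosen with earlier results of these data known. Genes of histone transcription and transcript processing needed mm9 positions and were not used here. Promoters were read from RefSeq (GRCm38.p6). On simulated data, 20 of 20 runs recovered all 40 planted peaks and their subclusters. The peaks were planted at fixed spacing in a stretch cleared of other peaks. These runs therefore check only the counting of intervals, and neither peak calling nor the subclusters of the data. Alternatives were wider peaks only, merging, other flanks, gaps, lengths and thresholds. Computation ran in Python 3.11.15 with scipy 1.17.1, pandas 2.3.3, matplotlib 3.10.9 and numpy 2.4.6. Intervals cover counting error only and take peaks as independent, which neighbouring peaks are not.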

Additional observations from a re-analysis of the deposited data

How the results depend on the processing

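Of 142 alternative values, 107 stayed within the limits set (1.5 times for counts, densities, covered shares, gaps and ratios, the 95% interval for median widths and percentages), 35 moved and 0 reversed. Counting a peak by its midpoint or leaving out the 157 bp peaks moved none of them. The wider 50% of all peaks gave 30 members and 75 peaks per Mb in Hist2, with a median width of 630 bp and 36.7% wide; in Hist1 they gave 79.1% wide, a median gap of 4885 bp and a density 8.96 times that of the flanks. The wider 25% gave 39 members, 16.2 peaks per Mb, a median of 1486 bp and 87.2% wide in Hist1, with ratios to the flanks of 19.5 for density, 47.8 for covered share and 2.34 for median width. In Hist2 they gave 18 members, 45.0 peaks per Mb, a median of 1394.5 bp, 61.1% wide, and ratios of 31.9 for covered share and 2.45 for median width. These settings drop narrow peaks by construction. Merging within 1000 bp raised the median gap to 6954 bp in Hist1 and 6647 bp in Hist2, where 37.1% were then wide. Flanks of 1 Mb lowered the density ratio to 3.12 in Hist1 and 4.31 in Hist2 and the covered ratio to 9.32 in both (9.316 and 9.317). With the summed span of the subclusters as length, Hist1 had 54.5 peaks per Mb (12.6 times its flanks) and 6.12% covered (41.4 times). The flanks kept their full length, with long stretches that hold no peak, so these ratios rise by construction. Splitting at 100 kb gave 5 subclusters in Hist1. A limit of 1500 bp left 18 wide peaks (30.0%) in Hist1 and 7 in Hist2. Since depth is unknown, absent peaks may reflect few reads, and a wide peak cannot be told from several joined by the caller.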
